A study of Mus musculus with 9 samples.

Results

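The 7 genes described here encode proteins on the surface of muscle cells and of satellite cells, the stem cells of skeletal muscle. They are the cadherins Cdh2 and Cdh15, the immunoglobulin family members Ncam1, Vcam1 and Mcam, the calcitonin receptor Calcr and the lectin-like protein Chodl. They were chosen by gene symbol, with earlier results of these data known. All 7 were found among the 22180 genes that could be named on the arrays, each through 1 probe set. Hindlimb skeletal muscle was taken from mice of mixed strain at postnatal day 2 (P2), 7 (P7) and 14 (P14); each age had 3 biological replicates, which makes 9 arrays. The labels give no treatment and no engineered allele for any group, so the 3 groups differ by age alone as far as they say. The labels do not say if each replicate came from a single mouse or from several, so the p-values below speak for the variation among these 9 samples, some of which may be technical.

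Cadherins bind the same cadherin on a neighbouring cell in the presence of calcium, and their cytoplasmic tails bind catenins, which connect to actin. Immunoglobulin family molecules bind themselves, integrins or matrix proteins. In growing muscle such contacts hold myoblasts together before they fuse and hold satellite cells against the fibre, beneath its basement membrane. Calcr is a G protein-coupled receptor rather than an adhesion molecule and is grouped with the others because it lies on satellite cells, where it is known for its part in quiescence.

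From P2 to P14, 3 of the 7 genes fell, Ncam1, Vcam1 and Cdh15, and 0 rose, where 4.40% of all genes fell. The count was 1 without any 1 of 6 of the 9 arrays and 5 without P2 replicate 2; the calls of Vcam1 and Cdh15 were lost in 6 and 7 of the 9 fits that leave out 1 array. Ncam1 changed most, to a level 2.92-fold lower at P14. Cdh2 and Mcam were also lower on average at P14 but did not pass the test, Calcr differed little between ages, and Chodl was lowest at P7 without passing the test in either interval. In the same samples 7 of 12 mature fibre, 3 of 12 endothelial and 4 of 10 pericyte and smooth muscle markers rose and 0 fell, and 3 of 10 fibro-adipogenic markers fell and 0 rose. Over all genes 6.63% rose and 4.40% fell.

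The start regions of some of these genes are shown first, since muscle regulators such as Myod1, Myf5 and Myog bind the E-box, the letters CANNTG. Of the 7 genes, 4 had an entry in the RefSeq table of start sites (GRCm38.p6): Cdh15, which fell, and Mcam, Chodl and Calcr, which were not called. Only 1 of these 4 fell, so genes that fell and those that did not cannot be compared for the motif. The 250 bases before the start are printed 5′ to 3′ for Cdh15 (chr8:122848124-122848373, plus strand), Mcam (chr9:44134408-44134657, plus strand) and Chodl (chr16:78930698-78930947, plus strand), with each CANNTG in capitals.
Cdh15: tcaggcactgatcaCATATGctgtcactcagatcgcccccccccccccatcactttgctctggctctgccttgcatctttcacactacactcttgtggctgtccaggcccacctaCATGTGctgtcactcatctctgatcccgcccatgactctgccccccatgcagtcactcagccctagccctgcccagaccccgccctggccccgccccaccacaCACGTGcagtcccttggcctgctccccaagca
Mcam: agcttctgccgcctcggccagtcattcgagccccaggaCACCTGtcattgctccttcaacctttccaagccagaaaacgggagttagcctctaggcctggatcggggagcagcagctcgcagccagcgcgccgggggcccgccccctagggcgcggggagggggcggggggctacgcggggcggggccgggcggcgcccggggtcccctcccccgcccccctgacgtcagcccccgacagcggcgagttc
Chodl: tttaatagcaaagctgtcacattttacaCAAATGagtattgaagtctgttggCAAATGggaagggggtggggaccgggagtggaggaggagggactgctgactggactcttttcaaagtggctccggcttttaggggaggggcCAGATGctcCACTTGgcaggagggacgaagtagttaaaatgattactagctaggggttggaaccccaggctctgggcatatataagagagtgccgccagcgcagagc
The Cdh15 stretch held 3 matches, at 236, 135 and 32 bases before the start, Mcam held 1 and Chodl held 4. Of the 2 listed starts of Calcr, 1 had a match, the sequence CACCTG at 115 bases before it, and the other had 0. The motif reads the same on both strands. Of the 32851 start regions in the table, 66.2% held at least 1 match in 250 bases, and the median was 1 match. Its presence in Cdh15, Mcam and Chodl is therefore no mark of these genes. The stricter letters CAGCTG, a subset of CANNTG, were found in 13% of all start regions and in none of the stretches of these 4 genes. A match is a run of letters and was not tested as a binding site.

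All values are log2 intensities, so a difference of 1 is a 2-fold change, and errors are the standard deviation (SD) of 3 arrays for levels and the standard error (SE) of the fit for changes. A gene was called changed where limma gave an adjusted p under 0.05 over all 22180 genes. Smell and taste receptor genes, which muscle is not expected to express, served as a measure of background, chosen after values had been seen: the highest age mean of 1428 such genes had a 95th percentile of 3.43, and each of the 7 genes was above it on 9 of 9 arrays. By the highest age mean, a looser rule, 59.6% of all genes were above this background level, so passing it says little by itself. Probe sets differ in brightness, so levels were compared between ages for 1 gene and never between genes. Replicates correlated at 0.953 to 0.984 across genes, with the widest spread at P2. P2 replicate 2 stood apart from the other P2 arrays on the second principal component (-33.2 against 21.5 and 27.8). Precision is limited by having 3 arrays per age. The tissue label was borne out by its markers: 12 of 12 mature fibre genes were above the background level, and their mean level was 9.06 to 9.55 on the P2 arrays and 10.42 to 10.49 on the P14 arrays, with P7 between them.

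Cdh15, or M-cadherin, is the cadherin of myoblasts and of the contact between a satellite cell and its fibre. It was at 5.30, 4.90 and 5.33 on the 3 P2 arrays, at 4.89, 4.65 and 4.88 on the P7 arrays, and at 4.76, 4.46 and 4.49 on the P14 arrays. All P2 arrays lay above all P14 arrays, and above all P7 arrays by a narrow margin, whereas P7 and P14 overlapped. Cdh15 fell from 5.18 ± 0.24 at P2 to 4.57 ± 0.17 at P14 (SD, n = 3), a 1.52-fold lower level (log2 -0.61 ± 0.18, SE; limma adjusted p = 0.0417). Neither interval alone was called: the change was -0.37 ± 0.18 from P2 to P7 (adjusted p = 0.407) and -0.24 ± 0.18 from P7 to P14 (adjusted p = 0.613). The call from P2 to P14 was fragile. It was kept without P2 replicate 2 (log2 -0.74) or P7 replicate 2, and lost without any 1 of the other 7 arrays, with an adjusted p of up to 0.156 without P14 replicate 2.

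Cdh2, or N-cadherin, is found on myoblasts and satellite cells, and also on nerve and other mesenchymal cells. Its P2 arrays were widely spread, at 6.21, 4.60 and 5.41. The P7 arrays were at 5.41, 4.87 and 4.83, and the P14 arrays close together at 4.54, 4.45 and 4.48. All P14 arrays lay below all P2 and all P7 arrays, but P2 replicate 2 lay close to the P14 arrays. The mean went from 5.41 ± 0.80 at P2 to 4.49 ± 0.05 at P14 (SD, n = 3), a log2 change of -0.92 ± 0.30 (SE) that was not called (limma adjusted p = 0.0699). Without P2 replicate 2 the change was -1.32 and was called (adjusted p = 0.00410), and without P2 replicate 1 it was -0.52 (adjusted p = 0.261), so the call turned with single P2 arrays. With all arrays kept it was called after cyclic loess normalization (adjusted p = 0.0388) and with the filter on dim genes (adjusted p = 0.0406). The 95% confidence interval with all arrays ran from -1.57 to -0.27. From P2 to P7 the change was -0.36 ± 0.30 (adjusted p = 0.663) and from P7 to P14 it was -0.55 ± 0.30 (adjusted p = 0.446).

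A second, dimmer probe set for Cdh2 was at 4.30, 3.78 and 3.56 at P2, at 3.49, 3.35 and 3.09 at P7, and at 3.30, 3.12 and 3.32 at P14. Its P2 arrays were also above its P14 arrays, but most of its P7 and P14 values were under the background level of 3.43, so they carry little information. In place of the brighter one it gave a log2 change from P2 to P14 of -0.63, not called (limma adjusted p = 0.0621).

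Ncam1, the neural cell adhesion molecule, covers fetal muscle fibres and after birth becomes restricted to satellite cells and the neuromuscular junction. It was at 7.52, 7.18 and 7.16 at P2, at 6.44, 6.50 and 6.40 at P7, and at 5.57, 5.84 and 5.81 at P14. The 3 ages did not overlap, and the level was stepwise lower with age. From 7.28 ± 0.20 at P2 to 5.74 ± 0.15 at P14 (SD, n = 3) Ncam1 fell 2.92-fold (log2 -1.55 ± 0.17, SE; limma adjusted p = 4.28e-05). That call held with any 1 of the 9 arrays left out, with log2 changes of -1.61 to -1.43.

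Both intervals contributed to the change in Ncam1. From P2 to P7 its log2 change was -0.84 ± 0.17 and stood just outside the threshold (limma adjusted p = 0.0517). It was called without P2 replicate 2 (adjusted p = 0.0424) or P2 replicate 3 (adjusted p = 0.0465). From P7 to P14 it fell to a level 1.63-fold lower (-0.71 ± 0.17, adjusted p = 0.0410), a call lost without any 1 of the 6 arrays of these ages (the highest adjusted p, 0.197, came without P14 replicate 1). The contrast of the later interval, of 7 days, with the earlier one, of 5 days, was 0.13 ± 0.29 and was not called (adjusted p = 0.948; 95% confidence interval -0.49 to 0.76).

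Vcam1, the vascular cell adhesion molecule, binds α4 integrins, and is carried by satellite cells and by activated endothelium. It was at 5.53, 4.75 and 5.04 at P2, at 4.75, 4.83 and 4.18 at P7, and at 4.32, 4.38 and 4.35 at P14. The P14 arrays lay close together and below all P2 arrays, and the P7 arrays overlapped with both other ages. Vcam1 fell from 5.11 ± 0.40 at P2 to 4.35 ± 0.03 at P14 (SD, n = 3), a 1.69-fold lower level (log2 -0.76 ± 0.22, SE; limma adjusted p = 0.0408). The call was lost without P2 replicate 1 (-0.54, adjusted p = 0.164), P2 replicate 3, P7 replicate 1 or any P14 array. The change was -0.52 ± 0.22 from P2 to P7 (adjusted p = 0.345) and -0.23 ± 0.22 from P7 to P14 (adjusted p = 0.710).

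Mcam, also called CD146, is a marker of endothelial cells, pericytes and smooth muscle and is present on myoblasts. It was at 6.71, 6.16 and 6.67 at P2, at 6.48, 6.25 and 6.28 at P7, and at 6.18, 5.98 and 6.10 at P14. P2 replicate 2 lay among the P14 arrays, while the other 2 P2 arrays lay above all P7 and P14 arrays. The log2 change from P2 to P14 was -0.42 ± 0.18 and was not called (limma adjusted p = 0.173; 95% confidence interval -0.81 to -0.03). Without P2 replicate 2 it was -0.60 and was called (adjusted p = 0.0377). The changes in the 2 intervals were -0.17 ± 0.18 (adjusted p = 0.746) and -0.25 ± 0.18 (adjusted p = 0.611).

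The receptor and the lectin did not share the pattern of lower values with age. Calcr was at 3.58, 3.95 and 4.16 at P2, at 3.95, 4.12 and 4.35 at P7, and at 4.03, 3.65 and 4.07 at P14. The 3 ages overlapped, and the values were not far above the background level of 3.43, where a change in few cells of the tissue would be hard to see. The log2 change from P2 to P14 was 0.02 ± 0.20 (limma adjusted p = 0.965), with a 95% confidence interval of -0.40 to 0.44. The 2 intervals gave 0.25 ± 0.20 (adjusted p = 0.645) and -0.23 ± 0.20 (adjusted p = 0.680).

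Chodl encodes chondrolectin, a membrane protein with a C-type lectin domain that is known in muscle and in motor neurons. It was at 5.27, 5.84 and 4.98 at P2, at 4.98, 4.74 and 4.38 at P7, and at 5.19, 5.51 and 5.53 at P14. All P7 arrays were below all P2 and P14 arrays, with P7 replicate 1 and P2 replicate 3 almost level. Its mean stood at 5.36 ± 0.44 for P2, 4.70 ± 0.30 for P7 and 5.41 ± 0.19 for P14 (SD, n = 3). The log2 change was -0.66 ± 0.23 from P2 to P7 (limma adjusted p = 0.242) and 0.71 ± 0.23 from P7 to P14 (adjusted p = 0.133), and neither was called. The contrast between the intervals was 1.37 ± 0.39 and was not called either (adjusted p = 0.296), although its unadjusted p was 0.00359. From P2 to P14 the change was 0.05 ± 0.23 (adjusted p = 0.929).

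**Figure D1:**
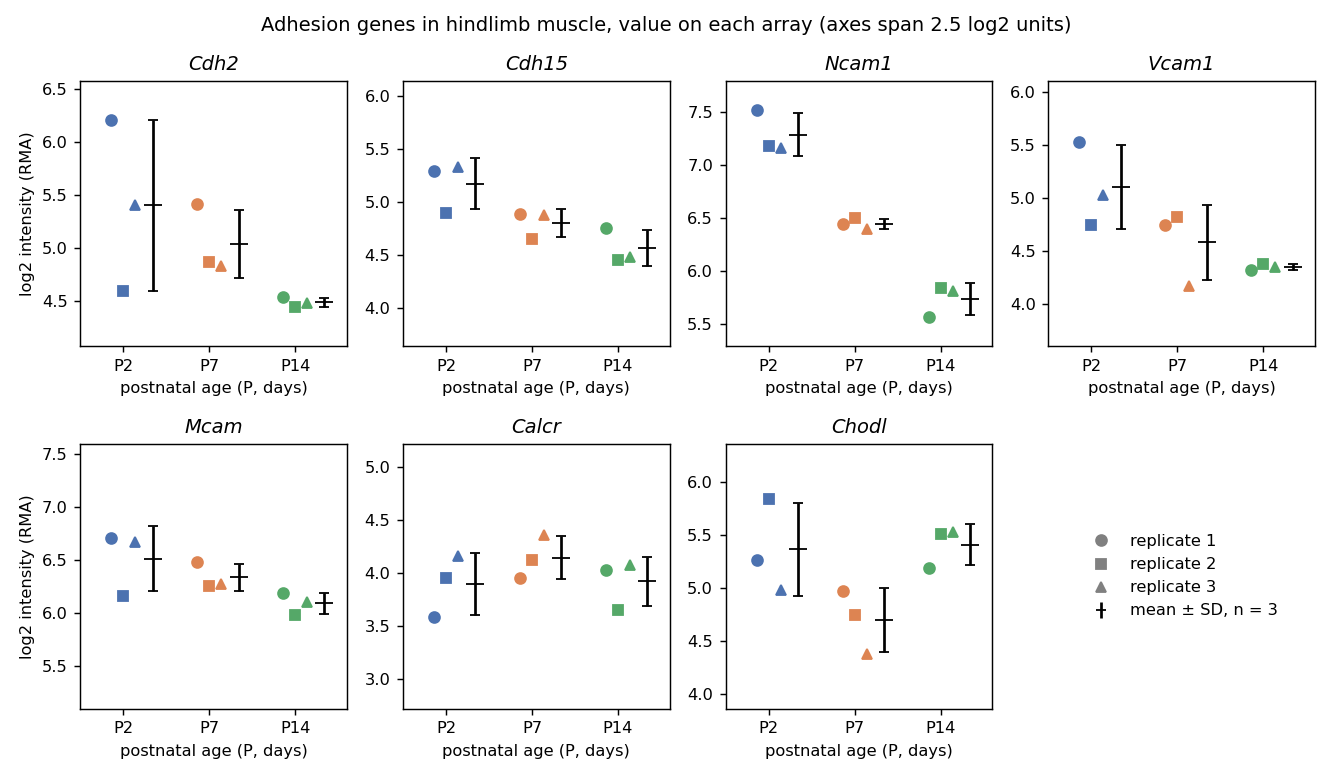
Log2 intensity of each of the 7 genes on every array at P2, P7 and P14, with symbols for the replicates and a bar for the mean ± SD of 3 arrays; every vertical axis spans the same range. Ncam1 is stepwise lower with no overlap between ages, the P2 arrays of Cdh2 run from 4.60 to 6.21, and the P7 arrays of Chodl lie below those of both other ages.

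Counted together, the called changes of the 7 genes were all falls. From P2 to P14, 3 of 7 fell and 0 rose, and 4 were not called, where 4.40% of all genes fell and 6.63% rose by the same test. Their median log2 change was -0.61, against 0.01 over all genes. The 7 genes were chosen with earlier results of these data known, so these counts describe them and do not test them as a group. The arrays of the 2 ages did not overlap for 4 of the 7 (Cdh2, Cdh15, Ncam1 and Vcam1, each lower at P14), a state seen in that direction in 12.6% of all genes. From P2 to P7 the arrays did not overlap for 3 (Cdh15, Ncam1 and Chodl, lower at P7; 7.90% of all genes), and from P7 to P14 for 4, of which Cdh2, Ncam1 and Mcam were lower at P14 (9.13% of all genes) and Chodl was higher (14.8%). From P7 to P14, 1 of 7 fell, against 0.703% of all genes, with a median of -0.24. From P2 to P7 limma called 0 of 7, where 0.329% of all genes were called in either direction; 3 of the 7 (Ncam1, Vcam1 and Chodl) had an unadjusted p under 0.05, as had 2847 of the 22180 genes. Over the 3 ages the moderated F-test called 1 of the 7, Ncam1 (adjusted p = 0.000166), and 8.24% of all genes. Its count of the 7 was 4 without P2 replicate 2 and 2 without P2 replicate 3. The contrast between the intervals was called for 0 of the 7 (1 with an unadjusted p under 0.05, Chodl, as had 1801 of the 22180 genes) and for 0.194% of all genes. The pairs of ages share arrays, so these counts are not independent of each other. In whole tissue, fewer cells of a type and less RNA per cell cannot be told apart.

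**Figure D2:**
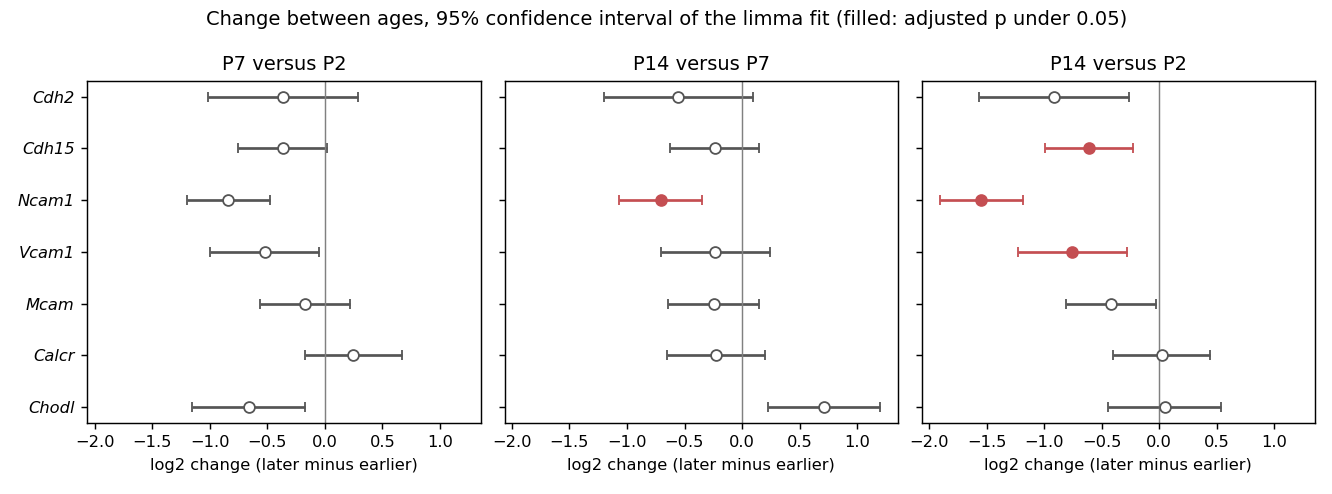
Log2 change (later minus earlier age) of each gene for the 3 pairs of ages, with the 95% confidence interval of the limma fit; filled points have an adjusted p under 0.05. Ncam1 is filled in 2 panels, and Cdh15 and Vcam1 only for P14 versus P2.

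The call of the P14 against P2 difference depended on single arrays for most genes. In Cdh2, Cdh15, Vcam1 and Mcam, P2 replicate 2 was the lowest of the 3 P2 arrays, so leaving it out could only make all 4 differences larger. Without it 5 of the 7 genes were called. Without P2 replicate 1, 1 gene was called, Ncam1. Without any 1 of the P14 arrays the count was also 1, without P2 replicate 3 it was 1, and without P7 replicates 1, 2 and 3 it was 1, 3 and 2. Leaving out a P7 array alters the error of the fit and not the P14 against P2 difference itself. The P2 replicate 2 array was the highest of the P2 arrays in Chodl.

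**Figure D3:**
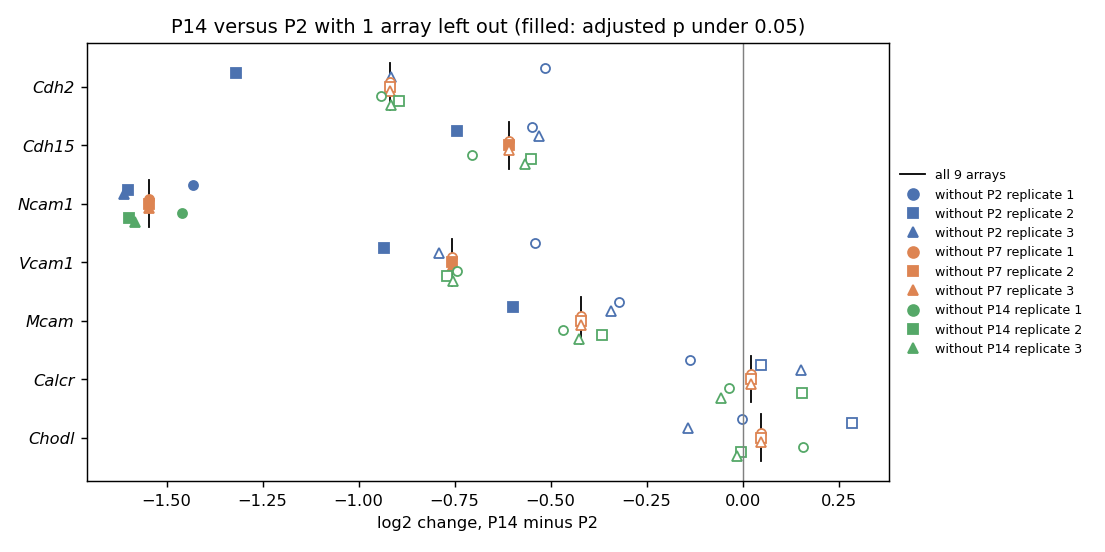
Log2 change from P2 to P14 of each gene with 1 array left out at a time, coloured by the age and shaped by the replicate left out; the vertical line is the value with all 9 arrays and filled symbols have an adjusted p under 0.05. Ncam1 stays filled throughout, between -1.61 and -1.43, while Cdh2 ranges from -1.32 to -0.52 and is filled only without P2 replicate 2.

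Other adhesion genes were set beside these from 3 lists. Over 58 measured genes of the 3 lists, 8 fell and 3 rose from P2 to P14 (median log2 change -0.11), and limma called 0 from P2 to P7 (11 at an unadjusted p under 0.05) and 0 from P7 to P14 (8 at an unadjusted p under 0.05). Without P2 replicate 2 those counts of 0 became 1 and 2. The shares of all genes that fell and rose from P2 to P14 are the 4.40% and 6.63% given above. An unadjusted p under 0.05 was found for 2847 of the 22180 genes from P2 to P7 and for 3248 from P7 to P14. The count of 11 was 6 without P2 replicate 1 or any 1 of the P14 arrays.

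Among 17 cadherins and catenins 1 fell and 2 rose from P2 to P14, with 14 not called and a median of -0.05. Cdh11, a cadherin of mesenchymal cells, fell 2.75-fold (log2 -1.46 ± 0.22, SE; limma adjusted p = 0.000652), and the call held with any array left out. Its values were 6.89, 5.95 and 6.55 at P2, 5.82, 5.76 and 5.49 at P7, and 5.04, 5.12 and 4.84 at P14, with no overlap between ages. Plakoglobin (Jup), which can take the place of β-catenin under cadherins, rose (0.81 ± 0.20, adjusted p = 0.0161; lost without P2 replicate 1, P14 replicate 2 or P14 replicate 3). Cdh13, a cadherin without a cytoplasmic tail, rose by 0.62 ± 0.18 (adjusted p = 0.0380; lost without P2 replicate 1, P7 replicate 1 or any P14 array). The catenins that bind the tails of Cdh2 and Cdh15 were not called from P2 to P14: Ctnnb1 was at -0.36 ± 0.18 (adjusted p = 0.232), Ctnna1 at -0.25 ± 0.18 (adjusted p = 0.433) and Ctnnd1 at -0.32 ± 0.21 (adjusted p = 0.388). The endothelial cadherin Cdh5 was at 0.79 ± 0.25, not called (adjusted p = 0.0563).

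Among 22 immunoglobulin family genes 5 fell and 1 rose from P2 to P14, with 16 not called and a median of -0.08. Nectin3, a cell contact molecule that works beside cadherins, fell 1.75-fold (log2 -0.81 ± 0.16, limma adjusted p = 0.00462), a call held with any array left out. Cdon, which forms complexes with cadherins on myoblasts, fell 1.60-fold (-0.68 ± 0.16, adjusted p = 0.0150; lost without P14 replicate 1). Its relative Boc fell by 0.68 on the log2 scale (adjusted p = 0.0278; lost without P2 replicate 1, P2 replicate 2, P14 replicate 2 or P14 replicate 3) and is named after its value was seen. Alcam fell from 4.22 to 3.39 (adjusted p = 0.00828) and Nrcam from 3.55 to 2.73 (adjusted p = 0.0154; lost without P2 replicate 3 or P14 replicate 1), both under the background level at P14, so no fold is given. Esam, of endothelial junctions, was the 1 that rose (0.74 ± 0.20, adjusted p = 0.0267; lost without P2 replicate 1, P2 replicate 2 or any P14 array). The closest relative of Ncam1, Ncam2, was under the background level at all 3 ages.

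The ligands, counter-receptors and modifiers of the 7 genes were mostly not called: of 19 measured, 2 fell and 0 rose from P2 to P14, with a median of -0.15. The 2 were chains of collagen V, which is known as a ligand of Calcr in the satellite cell niche. Col5a2 fell 2.16-fold (log2 -1.11 ± 0.18, limma adjusted p = 0.00121), held with any array left out. Col5a1 fell by 0.67 on the log2 scale (adjusted p = 0.0499), and the call remained only without P2 replicate 2. Another collagen V chain on the list, Col5a3, was not called, with means of 5.56 at P2, 5.50 at P7 and 5.50 at P14. The integrin chains that bind Vcam1 were not called: Itga4 was at -0.24 ± 0.23 (adjusted p = 0.575) and Itgb1 at -0.39 ± 0.16 (adjusted p = 0.152). The enzymes that place polysialic acid on Ncam1 were not called either, St8sia2 at -0.34 ± 0.20 (adjusted p = 0.317) and St8sia4 at -0.04 ± 0.16 (adjusted p = 0.915). Lama4, a laminin chain bound by Mcam, was at -0.32 ± 0.16 (adjusted p = 0.244).

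**Figure D4:**
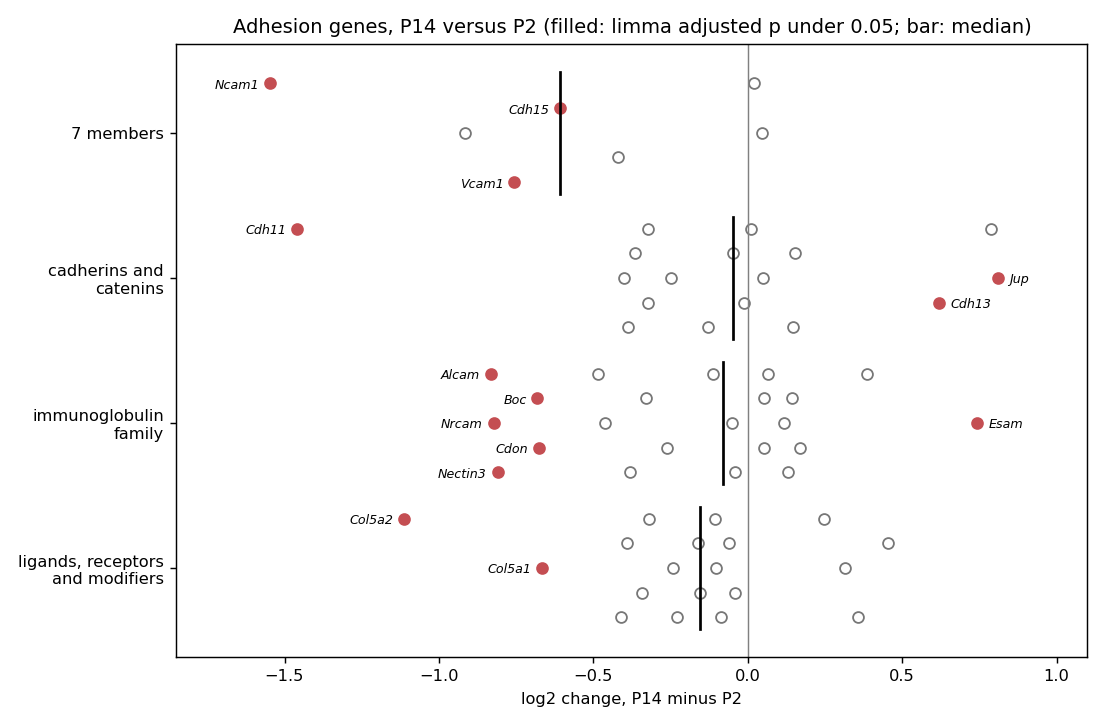
Log2 change from P2 to P14 for the 7 genes and for 3 lists of other adhesion genes, 1 point per gene, filled where the limma adjusted p is under 0.05, with a bar at the median of each row. The median of the 7 genes is -0.61 and those of the lists are -0.05, -0.08 and -0.15; called genes are named.

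The cell types that can carry these proteins were followed through marker lists. Beside the counts from P2 to P14 stand the shares over all genes, of which 4.40% fell and 6.63% rose. The satellite cell and myoblast list, 20 of 20 genes above the background level, had a mean level of 5.49 to 5.78 on the P2 arrays, 5.42 to 5.66 at P7 and 5.51 to 5.56 at P14, and these ranges overlapped. From P2 to P14, 2 of its 20 genes fell and 0 rose, with a median of -0.0044. On average 10 of the 20 were lower at P14 and 10 were higher. Among those higher without being called were Myod1 (5.41 at P2, 5.98 at P14) and Hes1 (4.13 at P2, 4.75 at P14). The myogenic factor Myf5 fell 2.17-fold (log2 -1.12 ± 0.22, limma adjusted p = 0.00415), a call held with any array left out. It also fell in the first interval, 2.29-fold (adjusted p = 0.0329; lost without P2 replicate 3, P14 replicate 3 or any P7 array). The receptor Fgfr4 fell by 0.67 (adjusted p = 0.0482; kept only without P2 replicate 1 or P7 replicate 2). Pax7, the defining factor of satellite cells, was at 4.93, 4.42 and 5.11 at P2, at 5.47, 4.10 and 4.52 at P7, and at 4.40, 4.45 and 4.44 at P14, and its change from P2 to P14 of -0.39 ± 0.28 was not called (adjusted p = 0.445).

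Endothelial markers, listed because vessels carry Vcam1 and Mcam, were mostly higher on average at P14 than at P2. Of the 12 genes, 11 were higher on average at P14. The other, Cldn5, was lower (4.69 at P2, 4.40 at P14) without being called. The list, 12 of 12 genes above the background level, had a mean level of 5.23 to 5.81 on the P2 arrays, 5.61 to 5.91 at P7 and 5.92 to 6.09 at P14. Of its 12 genes 3 rose from P2 to P14 and 0 fell (median 0.50): the endothelial receptors Flt1 (1.02 ± 0.19, limma adjusted p = 0.00308) and Ptprb (1.04 ± 0.20, adjusted p = 0.00326), both held with any array left out, and Esam. Of 10 pericyte and smooth muscle genes 4 rose and 0 fell (median 0.36), where 6.63% of all genes rose. The pericyte marker Rgs5 rose by 1.98 ± 0.28 (limma adjusted p = 0.000355). The list was mixed: 4 of the 10, Cspg4, Myh11, Cnn1 and Notch3, were lower on average at P14 without being called. Of the 10, 9 were above the background level, all but Cnn1. Their mean level was 5.78 to 6.14 on the P2 arrays, 6.00 to 6.13 on the P7 arrays and 6.25 to 6.42 on the P14 arrays. The part of endothelial cells, pericytes and smooth muscle in the values of Vcam1 and Mcam was not tested.

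The fibro-adipogenic list had a lower mean level at P14 than at P2, but its genes were mixed. On average 7 of the 10 were lower at P14 and 3, Dcn, Lum and Pi16, were higher. The mean level of 10 of 10 genes was 7.33 to 7.76 on the P2 arrays, 7.17 to 7.31 on the P7 arrays and 7.06 to 7.22 on the P14 arrays. From P2 to P14, 3 of the 10 fell and 0 rose (median -0.54), including Tcf7l2 (-0.92 ± 0.17, limma adjusted p = 0.00269) and Osr1 (-0.86 ± 0.18, adjusted p = 0.00664), both held with any array left out, and Pdgfra (-0.63 ± 0.19, adjusted p = 0.0496; kept only without P2 replicate 3). The part of these cells in the falls of Ncam1, Vcam1 and Cdh15 was not tested. Schwann cell markers, which bear on Ncam1 and Cdh2, were at 3.51 to 4.07 on the P2 arrays, 3.48 to 3.84 on the P7 arrays and 3.50 to 3.90 on the P14 arrays over 7 of 10 listed genes, 6 of them above the background level (Mag was not), and limma called 0 from P2 to P14 (2 at an unadjusted p under 0.05). Of 10 macrophage markers, all above the background level in at least 1 age, it called 0 (1 at an unadjusted p under 0.05); their mean was 4.63 to 5.28 on the P2 arrays, 4.61 to 4.71 on the P7 arrays and 4.74 to 4.76 on the P14 arrays. Over all genes 5386 of 22180 had an unadjusted p under 0.05 from P2 to P14. Of the 12 mature fibre genes 7 rose and 0 fell (median 0.72), led by parvalbumin (Pvalb, 4.50 ± 0.41, limma adjusted p = 7.89e-06).

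**Figure D5:**
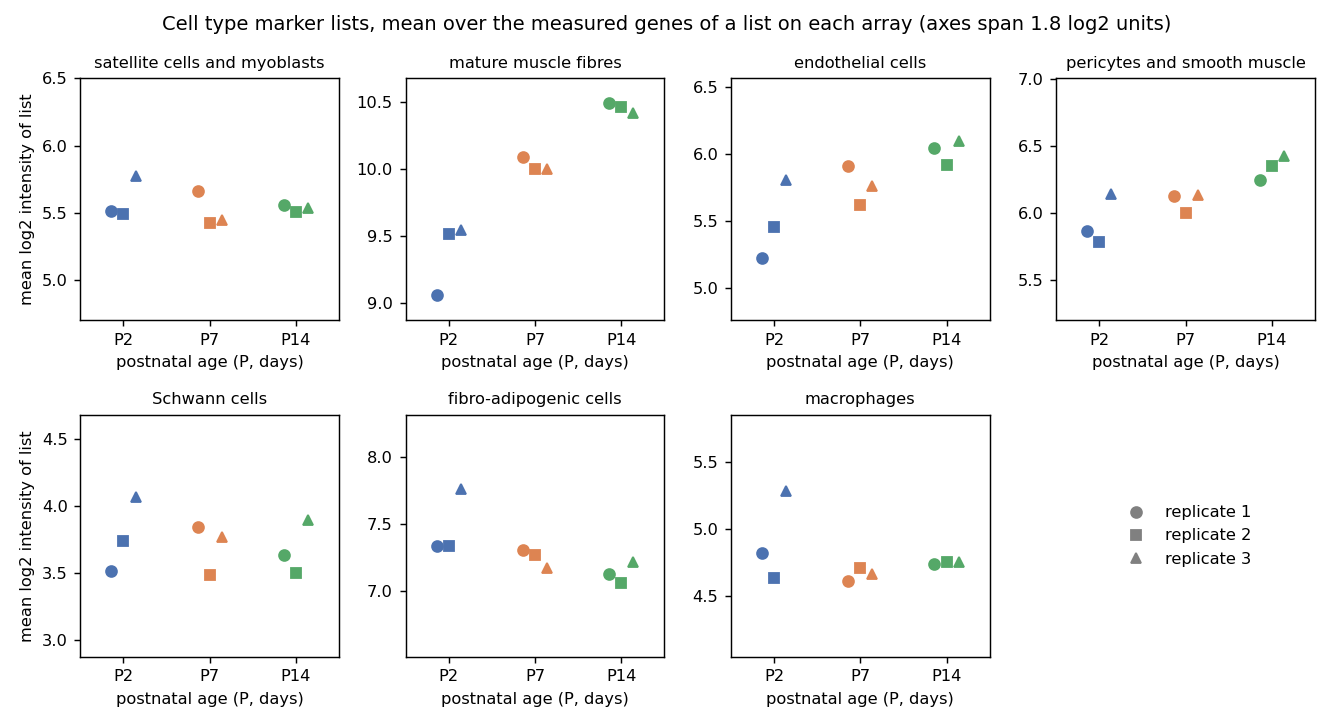
Mean log2 intensity of 7 cell type marker lists on each array, by age and replicate; every vertical axis spans the same range. The list means of satellite cell markers overlap between ages. Those of fibre, endothelial and pericyte markers are higher at P14 than at P2, and that of fibro-adipogenic markers is lower. Some genes of the pericyte and fibro-adipogenic lists, and Cldn5 of the endothelial list, went the other way.

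For each of the 7 genes the 3 genes with the most similar values over the 9 arrays were listed, as a description. The search covered 11188 genes with a highest age mean above the median of all genes. Genes named only by a clone or locus number, and small RNA genes, were left out of it. The arrays share ages and, within P2, the spread between replicates, so a high correlation says only that the profiles look alike. Ncam1 was most like the elastic fibre gene Fbn2 (Pearson r = 0.990), Ralgps2 (0.989) and Nrk (0.985). Fbn2 was at 7.21, 6.83 and 7.01 at P2, at 5.52, 5.36 and 5.16 at P7 and at 3.96, 4.16 and 4.01 at P14, stepwise lower as Ncam1 was. Cdh15 was most like Trim28 (0.972), Lrch1 (0.958) and Rbl1 (0.958). Vcam1 was most like Ninj2 (0.980), Pbrm1 (0.975) and Ebf2 (0.967), and Mcam was most like the actin crosslinker Flna (0.987), Disp1 (0.981) and Clta (0.969).

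Cdh2 was most like Ltf (0.989), Lcp1 (0.971) and Pglyrp1 (0.966), of which Ltf and Pglyrp1 are granule genes of neutrophils and Lcp1 encodes the plastin of white blood cells. Ltf was at 5.26, 3.21 and 4.43 at P2, at 4.32, 3.77 and 3.63 at P7, and at 3.19, 3.17 and 2.90 at P14. Its values on P2 replicate 2 and on all P14 arrays were under the background level of 3.43, so they carry little information. Ltf was picked by its correlation with Cdh2 over these arrays, so a like order of the arrays adds nothing to that. In both, replicate 1 was highest and replicate 2 lowest at P2, and P7 replicate 1 was the highest of the P7 arrays. The part of blood cells in the values of Cdh2 was not tested. Calcr had no profile as close, with Clec4a3 (0.911), Pea15a (0.898) and Baz2b (0.885). Chodl was most like the metabolic genes Ldhb (0.930) and Acadm (0.927) and the amino acid transporter Slc38a2 (0.920). These were lowest on average at P7 as well, which their choice by likeness to Chodl favours.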

How the data were processed

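Total RNA from hindlimb muscle was labelled and hybridised to arrays (9 samples). The deposited table holds log2 intensities of 41345 probe sets; the authors normalised them with RMA and used Partek, per the submitters' processing notes, whose settings are not given here, and the log2 base is taken from RMA. Probe sets with 1 symbol (23521) were named from the platform annotation, 23328 of them matched by Entrez number to RefSeq names (GRCm38.p6), and the brightest per gene was kept, which gave 22180 genes. A probe set shared by Ncam1 and another gene was left out. Models with 1 mean per age were fitted in limma 3.58.1 (R 4.3.3) with empirical Bayes moderation on all 9 arrays, and the two-sided p-values received a Benjamini-Hochberg adjustment across the 22180 genes. The fit was tested on simulated data. The 7 genes and the lists were chosen with earlier results of these data known. Of each list, up to 4 called genes with the smallest adjusted p are named per pair of ages. Cadm2 and Calca, of the adhesion lists, had no single-symbol probe set named here, and some Schwann cell markers are not reported here. Array medians were 3.29 to 3.36.

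Alternatives were centring on array medians, quantile and cyclic loess normalization, the mean of a gene's probe sets, a filter on dim genes, trended robust moderation, fits of 2 ages, a replicate block, Xist as a covariate and leaving out each array; the dimmest probe set was added after seeing the data.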

Additional observations from a re-analysis of the deposited data

How the results depend on the processing

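Ncam1 fell from P2 to P14 under every alternative run, between -1.69 and -1.43 on the log2 scale. It has 1 single-symbol probe set, so the 2 alternatives on the choice of probe set could not change its values. The filter on dim genes, trended robust moderation, the fit of 2 ages and the replicate block left its change at -1.55 and bear only on its error or adjusted p. The count of the 7 genes called from P2 to P14 was 3 with all arrays, 5 with cyclic loess, 4 with the filter on dim genes (Cdh2 added, limma adjusted p = 0.0406), 2 with only the 2 ages fitted (Cdh15 lost, adjusted p = 0.0663) and 1 to 5 with 1 array left out. From P2 to P7 it was 0, and 1 (Ncam1) with centring on array medians, with cyclic loess, with the filter on dim genes and with trended robust moderation, and 0 to 1 with 1 array left out. From P7 to P14 it was 1, and 0 to 1 with 1 array left out. For any age it was 1, 2 with cyclic loess and 1 to 4 with 1 array left out, and for the contrast between intervals it was 0, also with any 1 array left out. Over the 3 adhesion lists the count from P2 to P14 was 11 (6 to 11 with 1 array left out), from P7 to P14 it was 0, and 1 with Xist as covariate, 1 with the filter and 2 with only the 2 ages fitted (0 to 2 with 1 array left out), and from P2 to P7 it was 0 (0 to 1 with 1 array left out). Over all genes tested (fewer with the filter), the counts of 73 (P2 to P7), 538 (P7 to P14) and 2447 (P2 to P14) ranged over these alternatives from 11 to 206 (206 without P2 replicate 2), from 214 to 1051 and from 1373 to 2928.

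Small values that were not called changed sign. The P2 to P14 change of Calcr was -0.0058 when centred, -0.0090 with quantile normalization and -0.034 with cyclic loess (-0.14 to 0.15 with 1 array left out). That of Chodl was -0.037 with quantile normalization and -0.035 with cyclic loess (-0.14 to 0.29 with 1 array left out). The contrast between intervals for Ncam1 was -0.024 with quantile normalization, -0.022 with cyclic loess and -0.0077 with Xist as covariate. Cdh2 from P2 to P7 was -0.77 to 0.037 with 1 array left out. The cause was not tested. No pairing of samples by replicate number was seen, though so few arrays cannot exclude it. Deviations of same-numbered arrays correlated at -0.029 to 0.057 and those of differently numbered arrays at -0.082 to 0.106. Of the 9 arrays, 4 correlated best with their own number. With the replicate block the counts were 0 from P7 to P14 (Ncam1, limma adjusted p = 0.0706) and 4 from P2 to P14, where Cdh2 was added (adjusted p = 0.0335). Genes near background, such as Calcr, are limited by signal.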
